A study of Rattus norvegicus with 18 samples.

Results

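A set of 60 genes had a lower mean level in the heart of the hypertensive rat strain than in the normotensive strain. Each lay higher in every heart library of hypertensive rats given QDG than in every one of hypertensive rats given NS. The members were taken from the 17397 genes with a value of 1 FPKM or more in at least 6 of 18 libraries, out of 37262 genes in the files. FPKM is a count of sequenced fragments divided by the length of the gene and by the size of the library. On the scale of log2(FPKM + 1), a member had an SHR mean below the WKY mean by at least 0.2 and by less than 1, and all 6 of its QDG values lay above all 6 of its SHR values. Of the genes tested, 3016 met the first condition and 145 the second (0.833%). The set held 46 genes with Ensembl rat identifiers and 14 listed only by NONCODE, a collection of noncoding transcripts.

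RNA was extracted from rat hearts, rRNA was depleted and the rest was sequenced, in 6 libraries for each of 3 groups. WKY (Wistar-Kyoto) was labelled as the normal group. SHR is the spontaneously hypertensive rat, here given NS and labelled as the hypertension group. The QDG group was SHR given QDG. What NS and QDG stand for is not spelled out in the labels, nor whether WKY also received NS, so strain and NS cannot be told apart in SHR against WKY. The sources used here give no age, sex, dose or length of treatment. Nothing in the labels ties each library to a separate animal, so a p-value here speaks only of library-to-library spread, which may be technical.

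As background, SHR develop high blood pressure as they mature, and their left ventricle thickens and stiffens under that load. WKY is the usual comparison strain for SHR, but the strains also differ at many places in the genome that have no part in blood pressure. Noncoding transcripts are as a rule less abundant than messenger RNAs, and because rRNA depletion does not select for poly(A) tails, those without a tail are also sequenced.

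The files pair no identifier with a gene name, and 0 of the 37262 identifiers were found in the reference of 47357 rat genes used here. Roles of the members, heart cell markers and gene lists could therefore not be examined, and the labelled tissue could not be checked against its markers. Identifiers are given for 4 members. These are the 2 with the largest QDG minus SHR difference and, chosen after their values were seen, the 2 of smallest p among those lower in QDG than in WKY. Other members are described by class and level. A heart is a mixture of cell types, so fewer cells of a type and less RNA per cell cannot be told apart for any of them.

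The members were genes of low to moderate level. Their mean over the 18 libraries ran from 0.848 to 54.9 FPKM with a median of 3.71, against a median of 5.20 over all genes tested and 4.26 over the 2956 genes that met the strain condition alone. A mean above 10 FPKM was found in 15 of the 60 members and in 31.2% of all genes tested, and a mean below 2 FPKM in 16 members (26.7%) and in 23.5% of all genes. NONCODE genes made up 23.3% of the members, 28.7% of all genes tested and 36.6% of the genes meeting the strain condition alone. At least 1 FPKM was reached in all 18 libraries by 46 members and in no more than 12 libraries by 8. Fewer than 6 libraries outside the QDG group reached 1 FPKM for 6 members, and fewer than 6 outside the WKY group for 5, with 4 members in both counts. These passed the filter only with the help of a group in which the rule set them above SHR.

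The values that chose the members are given first, as a description. SHR minus WKY on log2(FPKM + 1) ran from -0.92 to -0.21 over the 60 members, with a median of -0.41, and the median over all genes tested was -0.01. QDG minus SHR ran from 0.12 to 1.25 with a median of 0.35, against 0.02 over all genes. In FPKM, the QDG mean was 1.13 to 7.55 times the SHR mean, with a median of 1.41 times. It was at least 1.5 times the SHR mean for 19 members and under 1.2 times for 9. The SHR mean had a median of 0.672 times the WKY mean.

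Both bounds of the rule ran through a continuous range of values. The members nearest to the strain bound had SHR minus WKY of -0.21, -0.21 and -0.22, and the next genes outside it, with all QDG values above all SHR values, had -0.20, -0.20 and -0.19. At the other end the member with the largest strain difference had -0.92, and 2 genes lay outside at -1.02 and -1.13. The gap between the lowest QDG and the highest SHR value had a median of 0.06 over the members and reached 0.28. It was under 0.05 for 25 members, while 80 genes that met the strain condition missed by an overlap of less than 0.05. Membership depended on scaling. Applied again after the library medians were set equal, the rule found 68 genes, 44 of them among the 60, and after quantile normalization it found 62, of which 42 were among the 60. With an SHR or QDG library left out, the condition on QDG and SHR values is easier to meet. Without SHR replicate 1 the rule found 116 genes, without SHR replicate 5 it found 115 and without QDG replicate 3 it found 121. Of the 60 members, 60, 60 and 58 were among these.

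**Figure D1:**
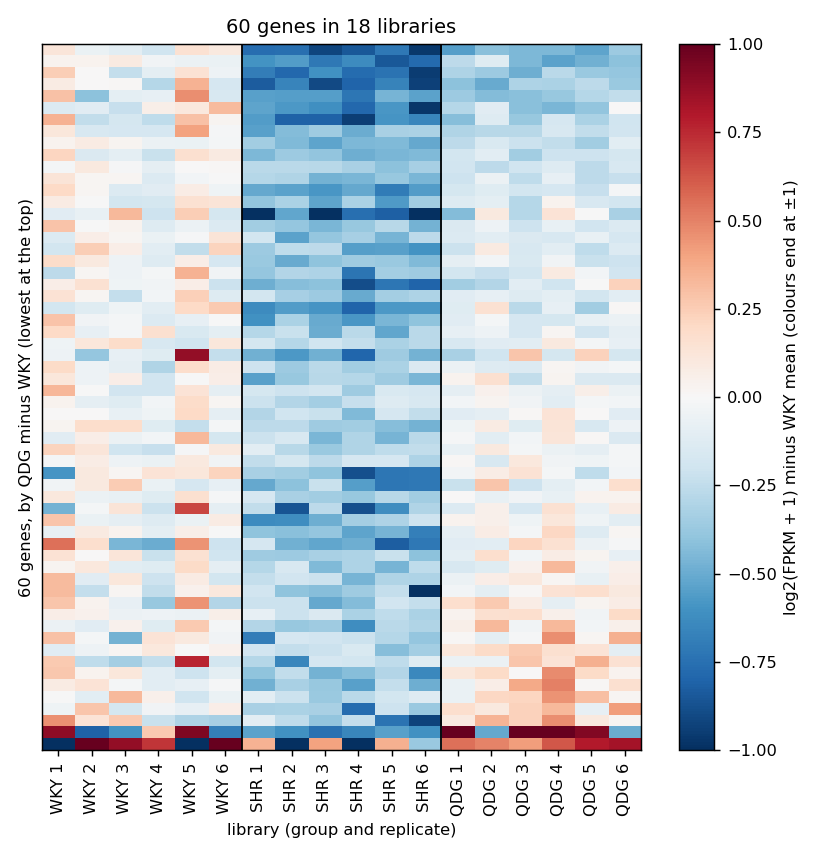
Each row is 1 of the 60 genes and each column 1 of the 18 libraries, ordered by group and replicate; the colour gives log2(FPKM + 1) minus the gene's WKY mean, blue for lower and red for higher, ending at 1 in either direction. The SHR columns are blue throughout most rows, which the choice of genes fixes, while the QDG columns run from light blue in the top rows to red in the lowest, and the 2 bottom rows change colour inside a group.

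In the limma test of QDG against SHR, 20 of the 60 members passed an adjusted p of 0.05, all of them higher, against 0.207% of all genes tested that passed in that direction. These were 17 of 46 Ensembl and 3 of 14 NONCODE members. In SHR against WKY, 54 members passed as lower (45 Ensembl and 9 NONCODE), against 12.6% of all genes. The rule used both contrasts, so nothing is read from these counts. The 40 members that did not pass in QDG against SHR had limma adjusted p up to 0.557 although their groups did not overlap, and all 20 that passed had also passed in SHR against WKY. Leaving out 1 library lowered the count of 20 in 5 cases by over 1.5 times. It was 13 when SHR replicate 4 was dropped and 12 when SHR replicate 6 was. Dropping QDG replicates 3, 4 or 6 gave 13, 12 and 13. The 6 WKY values also lay above the 6 SHR values without overlap for 40 members, against 6.09% of all genes tested, in 35 of 46 Ensembl members and 5 of 14 NONCODE members.

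The member with the widest gap between QDG and SHR was an Ensembl gene of low level. Its SHR libraries had 2.81, 3.22 and 3.33 FPKM as the lowest, the median and the highest value. The QDG libraries had 4.25, 4.47 and 5.09, and the WKY libraries 4.60, 5.14 and 6.08. No SHR library reached the level of any other, and the QDG and WKY libraries overlapped. The most abundant member, also an Ensembl gene, had 44.7, 46.4 and 51.0 FPKM in SHR, 51.7, 53.4 and 59.8 in QDG and 56.7, 62.6 and 68.4 in WKY. Its highest SHR library was close to its lowest QDG library, and the QDG libraries overlapped those of WKY, though this gene was among those called lower in QDG than in WKY (limma adjusted p = 0.0172).

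How far the QDG libraries were from WKY was a comparison that the rule did not use directly. It shares the WKY and QDG libraries with the rule, and each member had to lie above the SHR level in both groups. QDG minus WKY is also the sum of QDG minus SHR and SHR minus WKY, and the rule bounded both. Members are therefore in part bound to lie nearer to WKY than genes chosen by the strain condition alone. The median of QDG minus WKY over the 60 members was -0.03 on log2(FPKM + 1), with quartiles of -0.13 and 0.02, beside a median of 0.01 over all genes tested. Without WKY replicate 4 the members' median was -0.07. Over the 2956 genes that met the strain condition alone the median was -0.23. The QDG mean lay between the SHR and WKY means for 40 members (66.7%), against 25.0% of all genes tested. For the members, a QDG mean above SHR was set by the rule. The QDG mean was above the WKY mean for 20 members (33.3%) and for 52.4% of all genes. The difference was smaller than 0.1 in either direction for 25 members (41.7%) and for 43.1% of all genes tested, and smaller than 0.2 for 47 members (78.3%) and for 69.9% of all genes. At the smaller of these bounds the members' share was near that of all genes.

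By limma, 10 of the 60 members passed an adjusted p of 0.05 as lower in QDG than in WKY (16.7%), against 9.20% of all genes tested. Among the genes that met the strain condition alone, 1190 of 2956 passed as lower (40.3%). None of the 60 members passed as higher, against 11.7% of all genes tested. At an unadjusted limma p under 0.05, 0 members were higher, against 17.8% of all genes. At the same threshold 13 members were lower (21.7%), against 14.0% of all genes. A low count of higher calls is in part fixed by the choice of members, whose WKY level had to lie above that of SHR. Their smaller share of lower calls than the 40.3% is in part fixed too, because QDG had to lie above SHR. The 10 were 9 Ensembl genes and 1 NONCODE gene. The ratio of their QDG mean to their WKY mean ran from 0.646 to 0.879 and their limma adjusted p from 7.7e-05 to 0.0381, and 4 of them were among the 20 members called in QDG against SHR.

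For 57 of the 60 members the 95% confidence interval of QDG minus WKY lay within 1.5-fold in either direction on the log2(FPKM + 1) scale, against 84.3% of all genes tested. On that scale the change of a gene near 1 FPKM or below appears smaller than it is in FPKM. The 6 QDG values overlapped the 6 WKY values for 55 members. For the other 5 (8.33%) all QDG values lay below all WKY values, against 4.59% of all genes tested. These 5 were among the 10 called. No member had all QDG values above all WKY values, against 5.83% of all genes. The rule set the WKY mean above that of SHR by less than 1 and QDG above SHR. The members' shares in this paragraph are therefore in part fixed by the choice of genes.

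**Figure D2:**
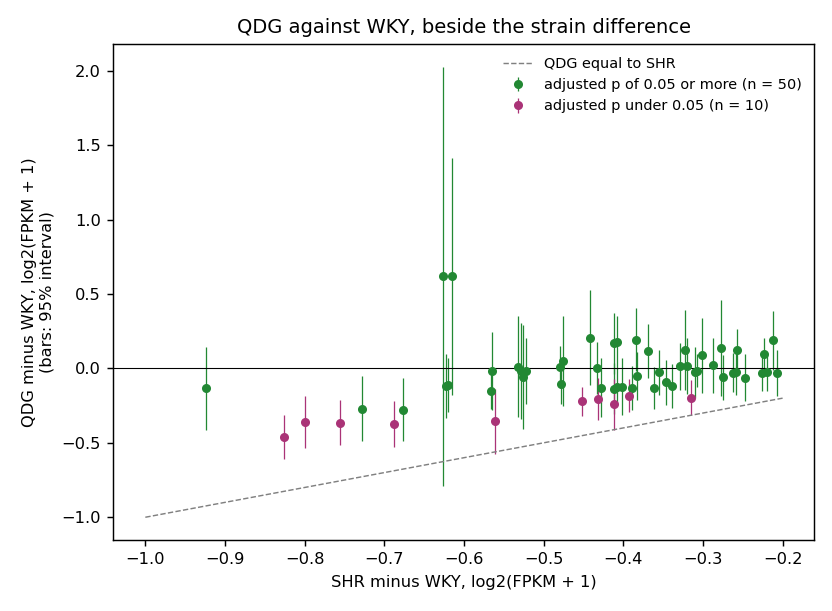
Each point is 1 of the 60 genes, with SHR minus WKY on the horizontal axis and QDG minus WKY on the vertical axis, both on log2(FPKM + 1), and bars for the limma 95% interval. The 10 genes called lower in QDG than in WKY lie between -0.46 and -0.18 on the vertical axis; the 2 points at 0.62 with the longest bars are ENSRNOG00000059764 and NONRATG005667.2.

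ENSRNOG00000006450 had the smallest p of the 10. It was at 2.86, 3.50 and 3.94 FPKM in the lowest, the median and the highest WKY library, at 1.28, 1.55 and 1.71 in SHR and at 2.04, 2.26 and 2.46 in QDG. The groups did not overlap, and QDG stood between the other 2. The difference of QDG from WKY was -0.46 on the log2 scale, with an SE of 0.07 (limma adjusted p = 7.7e-05). ENSRNOG00000045913 had 2.90, 3.08 and 3.35 FPKM in WKY, 1.27, 1.56 and 1.77 in SHR and 1.82, 2.04 and 2.75 in QDG. Here too no library of a group reached into another group, although the highest SHR and the lowest QDG library were close. QDG differed from WKY by -0.37 on the log2 scale, with an SE of 0.07 (limma adjusted p = 0.000897).

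At the other end stood an Ensembl member whose QDG and WKY levels differed least. It had 2.97, 3.15 and 4.27 FPKM in WKY and 3.06, 3.34 and 3.70 in QDG, with 1.82, 2.27 and 2.77 in SHR. QDG minus WKY was 0.0011 on log2(FPKM + 1) with a 95% interval from -0.17 to 0.17 (limma adjusted p = 0.995). The QDG libraries lay inside the WKY range, and no SHR library reached it. A p of this size does not show that the levels are the same, and the interval gives the sizes that these libraries leave possible.

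The members were also described in steps of the strain difference. Of the 11 members with SHR minus WKY at or below -0.6, the QDG minus WKY median was -0.27, 4 were called lower and 2 had a QDG mean above WKY. The 21 members from there to -0.4 had a median of -0.06, with 4 called lower and 7 above WKY. The 16 members from -0.4 to -0.3 had a median of -0.03, with 2 called lower and 6 above WKY. The 12 members nearest to -0.2 had a median of -0.03, with 0 called lower by limma and 5 above WKY. The compared differences share the WKY libraries, so these values are set side by side and no relation between them is tested. In the same steps the medians over all genes meeting the strain condition were -0.62, -0.38, -0.24 and -0.15. Of these genes limma called 70.5%, 59.2%, 40.6% and 22.9% lower in QDG than in WKY. The rule asked the members, but not these genes as a whole, for QDG values above SHR.

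Ensembl and NONCODE members differed in level and spread. The median level was 4.57 FPKM for Ensembl and 2.64 FPKM for NONCODE members, beside 7.18 and 2.20 FPKM over all tested genes of each class. The QDG mean was above the WKY mean in 12 of 46 Ensembl and in 8 of 14 NONCODE members, with medians of QDG minus WKY of -0.06 and 0.03. Over all genes tested it was above in 6634 of 12396 Ensembl and 2481 of 5001 NONCODE genes. The SD between the 6 WKY libraries on log2(FPKM + 1) had a median of 0.15 in Ensembl and 0.24 in NONCODE members, close to the 0.14 and 0.21 of all tested genes of each class. The median SE of QDG minus WKY was 0.07 and 0.12, beside 0.08 and 0.12 over all tested genes of each class. The difference between the classes was not tested.

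The 2 members with the largest QDG minus SHR difference did not have a stable level inside a group. ENSRNOG00000059764 was at 0.196 and 0.584 FPKM in WKY replicates 1 and 5 and at 7.87 to 12.3 in the other WKY libraries. In SHR it was at 0.134 and 0.138 FPKM in replicates 2 and 4, at 3.18 in replicate 6 and at 5.88 to 6.15 in the other 3. The QDG libraries held 6.21 to 8.62 FPKM, with none at the low level. WKY and SHR each had 2 libraries far below the rest, and the lowest QDG library was above the highest SHR library by only 0.01 on log2(FPKM + 1). By limma the adjusted p was 0.557 for QDG against SHR (log2 fold change 1.25, SE 0.66), 0.541 for SHR against WKY (-0.63) and 0.581 for QDG against WKY (0.62).

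NONRATG005667.2 also stood at 2 levels. In WKY it was at 0.178, 0.282 and 0.363 FPKM in replicates 2, 6 and 3, and at 1.47, 2.84 and 2.94 in replicates 4, 1 and 5. All 6 SHR libraries were low, between 0.231 and 0.420 FPKM. In QDG it was at 0.447 and 0.464 FPKM in replicates 2 and 6 and at 2.93 to 4.72 in the other 4. The 2 low QDG libraries were above the SHR range only narrowly, and the ratio of 7.55 between the QDG and SHR means came from the 4 high ones. The limma adjusted p was 0.225 for QDG against SHR, 0.260 for SHR against WKY and 0.290 for QDG against WKY, so no contrast of either gene passed. The low and high libraries of one gene were not those of the other: in WKY, replicates 1 and 5 were low for the first gene and high for the second.

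**Figure D3:**
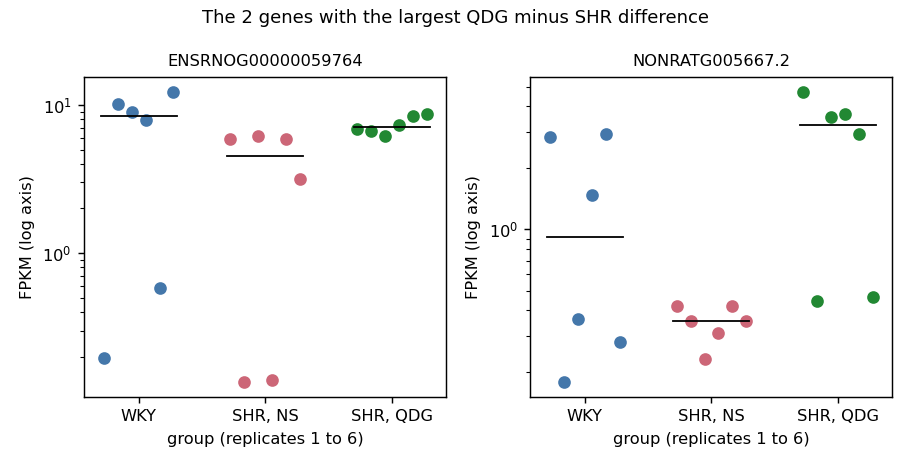
FPKM on a log axis in each library for ENSRNOG00000059764 (left) and NONRATG005667.2 (right), by group, with replicates 1 to 6 from left to right and a line at the group median. Single libraries of a group stand more than 5-fold apart in WKY and SHR on the left and in WKY and QDG on the right.

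A highest value at least 5 times the lowest inside a group was found in 3 members, and the other one was a NONCODE gene listed at 0 in SHR replicate 6 and at 0.760 to 1.07 FPKM in the other SHR libraries. For 46 members the highest value was no more than 2 times the lowest in every group. Outside the 2 named genes, QDG minus SHR reached 0.79 and QDG minus WKY reached 0.21.

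The level of the 60 genes was also summed up by library. The median over the members of log2(FPKM + 1) minus the gene's WKY mean lay between -0.12 and 0.10 in the WKY libraries, between -0.45 and -0.34 in SHR and between -0.10 and 0.00 in QDG. The gap between SHR and the other groups follows from the rule. The WKY and QDG ranges overlapped. The share of all FPKM held by the members was 0.0723% to 0.0850% for WKY libraries, 0.0518% to 0.0594% for SHR and 0.0697% to 0.0801% for QDG.

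**Figure D4:**
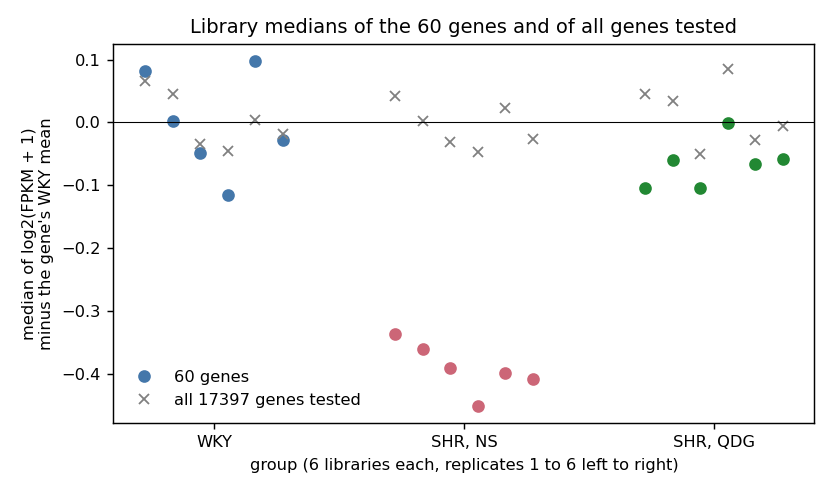
Filled points give, for each library, the median over the 60 genes of log2(FPKM + 1) minus the gene's WKY mean, and crosses the same over all 17397 genes tested. The filled SHR points lie between -0.45 and -0.34, the WKY and QDG points between -0.12 and 0.10, and the crosses of all 3 groups between -0.05 and 0.09.

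Inside the groups, part of the movement of the members was shared with all genes. QDG replicate 4 had the highest member median of its group, and all genes tested were also highest there, at 0.09 above their WKY mean. QDG replicate 3 was lowest in its group for both, at -0.10 for the members and -0.05 for all genes. QDG replicate 1 went the other way: its member median was also -0.10, while all genes stood at 0.04. SHR replicate 4 was lowest in its group for the members at -0.45 and for all genes at -0.05. WKY replicate 4 was the lowest and WKY replicate 5 the highest WKY library for the members, at -0.12 and 0.10, where all genes stood at -0.05 and 0.00. WKY replicate 4 held the lowest WKY value for 23 of the 60 members, and replicates 1 and 5 held the highest for 21 and 20. The median correlation between pairs of members over the 6 libraries was 0.19 in WKY, 0.10 in SHR and 0.14 in QDG, beside 0.10, 0.08 and 0.13 over all genes tested. Each rests on 6 libraries whose scaling is shared by all genes.

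Because SHR libraries enter both conditions of the rule, the rule was also applied with only 3 of the 6, and the other 3 were used to measure the genes it found, in all 20 possible assignments. The rule then found 137 to 452 genes (median 236 of the 20 assignments). Only 55 to 59 of them (median 57) were members, so in every assignment most of the genes found were not members. In the SHR libraries used, QDG minus SHR had a median of 0.31 over all genes found. In the SHR libraries left out the median was 0.18 (0.12 to 0.26), beside 0.02 (-0.01 to 0.05) for all genes tested. SHR minus WKY went from -0.35 in the libraries used to -0.24 (-0.33 to -0.17) in those left out. All 6 QDG values lay above all 3 left-out SHR values for 27.2% of the genes found (15.5% to 42.3%), against 2.998% (1.77% to 5.29%) of all genes tested. That share stood for 57 to 71 genes, and every member found is among them by definition. It is therefore no check on the members. Both conditions were met in the left-out libraries by 22.6% of the genes found (11.9% to 40%). The QDG and WKY libraries are the same in both steps, so only the SHR side is measured anew. The assignments share libraries and genes and are not replicates.

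With the strain condition set by 3 SHR libraries and QDG then compared with the other 3, no library served in both. The strain condition alone held for 2700 to 3746 genes. Their QDG minus SHR had a median of 0.06 (0.03 to 0.09) in the left-out libraries, against 0.02 (-0.01 to 0.05) over all genes tested. QDG was higher in 66.3% of them (60.04% to 71.7%) and in 55.9% of all genes (46.4% to 64.9%), and all QDG values lay above the left-out SHR values in 4.90% (3.02% to 8.04%) against 2.998% (1.77% to 5.29%). For genes chosen by all QDG values lying above 3 SHR values, SHR minus WKY had a median of -0.11 (-0.17 to -0.06) in the other 3, against -0.01 (-0.04 to 0.02) over all genes. The strain bound was met in the left-out libraries by 30.8% of them (21.8% to 41.2%) and by 18.4% of all genes (15.5% to 21.5%).

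**Figure D5:**
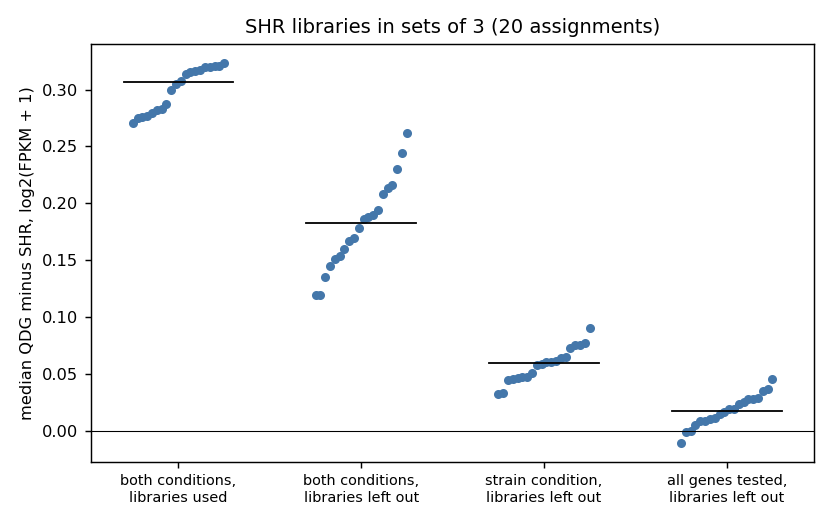
Median of QDG minus SHR on log2(FPKM + 1) in the 20 assignments of the SHR libraries to sets of 3, sorted within each column, with a line at the median. From left to right the medians are 0.31 for genes found by both conditions in the libraries that chose them, 0.18 in the libraries left out, 0.06 for genes chosen by the strain condition alone in the libraries left out, and 0.02 for all genes tested.

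Measures of the whole libraries were compared over 24 pairs of groups and measures by two-sided exact permutation tests. The share of all FPKM held by the most abundant gene was 18.7% ± 2.17 (WKY) and 13.5% ± 0.430 (QDG; SD, n = 6 each). For the third gene by abundance these shares were 4.46% ± 0.626 and 7.46% ± 0.831. Both differed between QDG and WKY (exact permutation p = 0.00216, the smallest possible, adjusted 0.0130). Neither differed between QDG and SHR beyond the spread (exact permutation p = 0.874 and 0.851), nor did relative depth, summed FPKM, genes at 0 or the NONCODE share (exact permutation p from 0.167 to 0.727). The p of the second gene by abundance was 0.0952 in that exact permutation test (adjusted 0.254). The fourth gene by abundance held 3.91% ± 0.517 in QDG and 4.68% ± 0.550 in SHR (SD, n = 6 each), with an exact permutation p of 0.0455 that was 0.136 after adjustment. In SHR against WKY, a contrast of the rule, the most abundant gene held 13.5% ± 0.833 in SHR and the third held 7.37% ± 0.821 (SD, n = 6 each), and both differed from WKY (exact permutation p = 0.00216, adjusted 0.0130). The share of all FPKM held by NONCODE genes also differed, at 6.53% ± 0.266 in SHR and 7.06% ± 0.286 in WKY (SD, n = 6 each; exact permutation p = 0.00649, adjusted 0.0312). The files do not give the depth of a library. Estimated from the steps between low values, it ran from 0.879 to 1.09 relative to WKY replicate 1. The part of these measures in the members' values was not tested.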

How the data were processed

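The deposited values, 1 column per library, are taken as FPKM normalized by the authors; the headers name only the identifier and the library, and the unit is inferred, since the values are not whole and their sums differ by library. Trizol extraction, removal of rRNA and a NEB library kit for Illumina are stated per the labels' protocols. The submitters' processing notes name limma with no version. The aligner, counter, build, annotation and strand setting were not given in the sources used here. Whether reads of overlapping or antisense genes were separated is therefore not known.

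Members, lists and tests were chosen with earlier results of these data known. The test was limma 3.58.1 on log2(FPKM + 1) values, run in R 4.3.3 (with statmod 1.5.0) using trended, robust moderation, 1 mean per group over 18 libraries, two-sided, with Benjamini-Hochberg adjustment over 17397 genes. The fit and the rule were run on simulated data with planted differences larger than the members' medians, in genes of small spread. That checks the code and says nothing about the members. Library measures were compared in Python 3.11.15 with scipy 1.17.1. Relative depth came from the commonest ratio between libraries over genes with a mean under 0.3. The rule for naming required symbols; without them it named the 2 members of largest QDG minus SHR difference. The gene and marker lists fixed for symbols were not used. No 2 libraries held identical values. Alternatives were other scalings, pseudocounts and filters, other limma settings, the 12 compared libraries alone, a replicate block and each library left out.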

Additional observations from a re-analysis of the deposited data

Results flagged for a closer look

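Of 72 sets of 6 values looked at, 4 had a library far from the other 5 of its group. Chance alone gives about 1 in 20. QDG replicate 4 listed 6245 genes at 0, and the other QDG libraries 6520 to 6662. The third gene by abundance held 9.01% of the FPKM of SHR replicate 4, and the rest of that group had 6.86% to 7.34%. The most abundant NONCODE member was at 15.3 FPKM in SHR replicate 2 and at 20.1 to 22.6 FPKM in the others. Its median was 21.1 FPKM in SHR and 21.2 in WKY, where the highest library had 42.4. It did not pass in SHR against WKY (limma adjusted p = 0.209). An Ensembl member called lower in QDG than in WKY was at 8.72 FPKM in SHR replicate 4 and at 9.93 to 10.6 FPKM in the others.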

How the results depend on the processing

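The count of 10 members lower in QDG than in WKY stayed within 1.5 times in all 28 alternatives, at 7 to 13, with 0 higher by limma in each. A filter at 5 FPKM left 28 members and, on these, gave 28 found by the rule, 11 called in QDG against SHR, 26 in SHR against WKY and a median QDG minus WKY of -0.0814. The counts of members called are over these 28, where the main fit counted over 60. Leaving out 1 library gave 56 to 121 genes found by the rule (56 to 69 without a WKY library), and 55 to 60 of the members remained. It gave 12 to 24 members called in QDG against SHR, 49 to 55 in SHR against WKY, 8 to 11 in QDG against WKY and medians of QDG minus WKY from -0.0707 to -0.0299. The calls of QDG against WKY for the 4 named genes did not change in any alternative that gave a value (adjusted p up to 0.00309 for the 2 called and from 0.115 for the others). Fold changes ranged from -0.62 to -0.43 for ENSRNOG00000006450, from -0.52 to -0.34 for ENSRNOG00000045913, from 0.05 to 1.19 for ENSRNOG00000059764 and from 0.45 to 1.21 for NONRATG005667.2. Each library's deviations from its group mean, over all genes tested, were correlated between same-numbered libraries of different groups. These correlations ran from -0.06 to 0.19. Replicate 5 had the highest in each pair of groups, at 0.19 for QDG and WKY, 0.13 for QDG and SHR and 0.16 for SHR and WKY. What the replicate 5 libraries share was not tested. A replicate block gave 10 members in QDG against WKY and 55 in SHR against WKY. In QDG against SHR it gave 15, where the main fit gave 20. Absolute depth is unknown, so counting error is not known for members near 1 FPKM.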
